A study of Vitis vinifera with 54 samples.

Results

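MLO5 is a grapevine membrane protein gene, listed in the deposited table under NCBI Gene number 100233058, with MLO1 as a synonym in RefSeq. It was picked out by that number, with earlier results of these data known, and it is 1 of the 25133 genes of the table. Flesh of Chardonnay berries (*Vitis vinifera* L.), cut free of skin and seeds, was collected in 6 ecological zones of Ningxia, China, at 3 stages. The enlargement period (E) was sampled at 40 DAP, the color transition period (V) at 80 DAP and the maturity period (M) at 120 DAP, where DAP counts the days from early flowering. The zones were HJZ, ZHYS, CC, XG, XLS and HSB, and a group is named by stage and zone, as in V-CC. Each of the 18 groups had 3 libraries, each made from 15 fruits, which gave 54 libraries. All groups share the cultivar and received no treatment that the labels name, and a zone cannot be told apart from its site, climate and vineyard management. The labels do not say whether the replicates came from separate vines or plots, so the p-values measure the spread between these samples. The values are TPM, a measure per gene length in which the values of each library add up to 1 common sum.

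The MLO genes encode plant membrane proteins that cross the membrane several times and carry a calmodulin-binding region in the part that reaches into the cytoplasm. The family takes its name from barley, in which plants without a functional Mlo gene resist powdery mildew. In *Arabidopsis*, other members act in the reception of the pollen tube and in the growth of roots on touch. In grapevine, members of the family have been tied to susceptibility to powdery mildew, but the numbers given to the grapevine genes differ between naming schemes. No role in the berry was therefore assigned here to MLO5.

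The libraries differed in composition. The 100 genes with the highest TPM held from 27.6% to 63.8% of the TPM of a library, and TPM of all other genes moves with that share. The same values were therefore also scaled by median-of-ratios factors, from 0.64 to 1.44 per library, and these are called rescaled TPM. The ripening genes GRIP4, GRIP22 and GRIP61 were higher at V than at E in all 6 zones. GRIP61 was already abundant at E, where its zone means averaged 1169 TPM, against 18159 TPM at V. All 3 V-XLS libraries were most like a library of another group, 2 of them of M-XLS and replicate 2 of V-XG. The changes of MLO5 in the mean over zones and the differences between zones were therefore also computed without XLS.

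The level of MLO5 at E was low in HJZ, with 9.97, 7.49 and 9.41 TPM. In the same zone it was 32.03, 30.18 and 33.45 TPM at V, and 42.82, 45.88 and 45.45 TPM at M. Every HJZ library of a later stage was above every library of the stage before it. In ZHYS the libraries had 10.68, 11.44 and 15.21 TPM at E, 48.92, 40.93 and 42.05 TPM at V, and 45.15, 37.95 and 41.53 TPM at M. In XLS they had 16.06, 12.37 and 13.56 TPM at E, 37.60, 36.15 and 48.77 TPM at V, and 41.31, 44.28 and 46.32 TPM at M. In ZHYS and XLS the E libraries lay far below those of both later stages, while the V and M libraries overlapped. In XG the libraries had 12.14, 9.75 and 10 TPM at E, 37.10, 38.82 and 39.46 TPM at V, and 26.50, 27.43 and 28.02 TPM at M, so that V was the highest stage and no library overlapped with another stage.

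The remaining zones had a different shape. In CC the libraries of MLO5 had 24.56, 22.10 and 19.93 TPM at E, 20.55, 18.85 and 21.85 TPM at V, and 31.48, 26.64 and 28.93 TPM at M. The E and V libraries of CC overlapped, and all 3 M libraries were above them. In HSB they had 27.57, 25.26 and 28.08 TPM at E, 29.96, 31.69 and 34.23 TPM at V, and 24.39, 22.36 and 23.16 TPM at M. The HSB stages did not overlap, and V was the highest. The 9 libraries lay between 18.85 and 31.48 TPM in CC and between 22.36 and 34.23 TPM in HSB. Over all libraries MLO5 ranged from 7.49 TPM in E-HJZ replicate 2 to 48.92 TPM in V-ZHYS replicate 1, a 6.53-fold range. Within a group the coefficient of variation had a median of 7.86%, from 2.81% in M-XG to 19.5% in E-ZHYS.

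**Figure D1:**
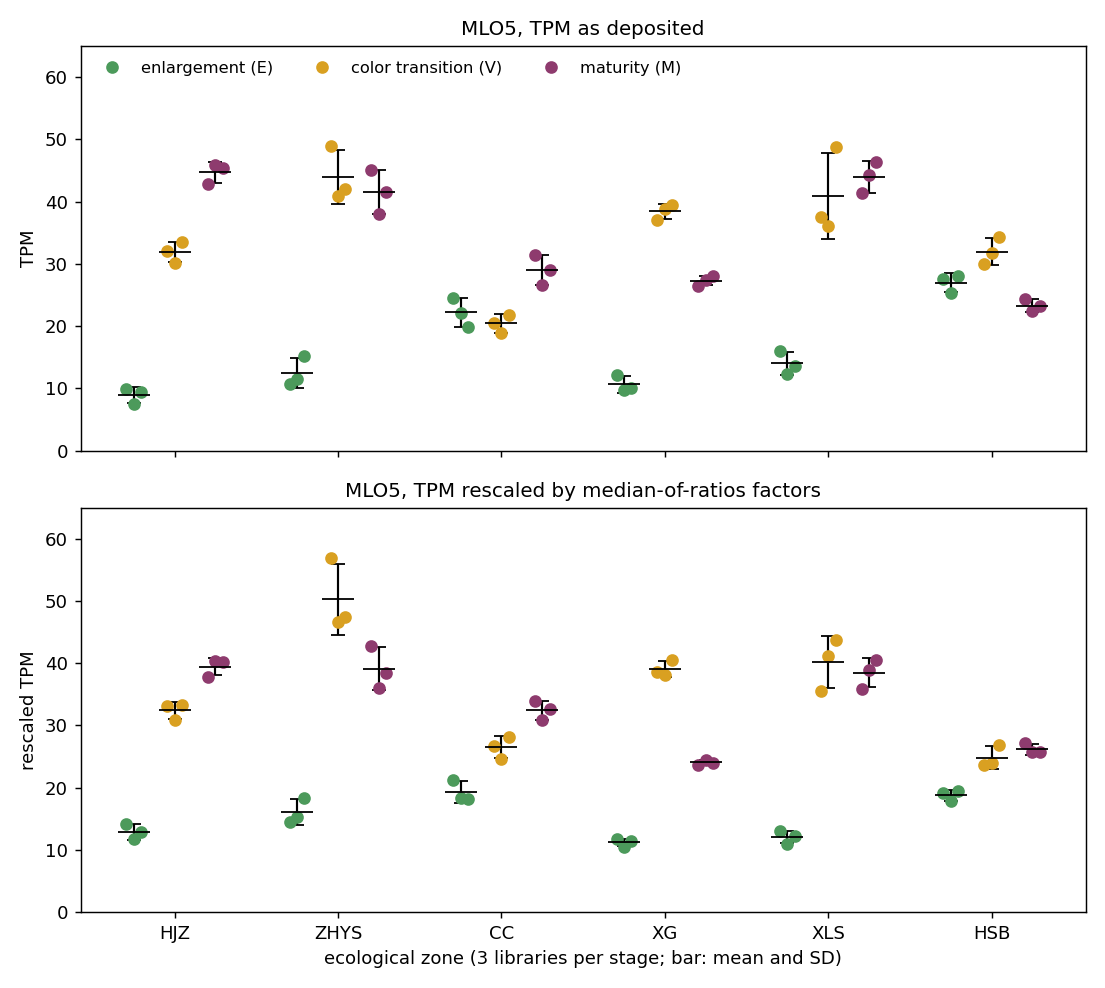
MLO5 in each of the 54 libraries by ecological zone (x axis) and stage (color), with the group mean and SD (n = 3) as black bars; the upper panel shows TPM as deposited and the lower panel rescaled TPM. At E, HJZ, ZHYS, XG and XLS lie well below V and M, while CC and HSB start from 22.2 and 27.0 TPM, or from 19.3 and 18.8 after rescaling.

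The 18 groups were ordered by mean TPM and split into blocks at the steps where the libraries of neighbours did not overlap. Groups further apart within a block, such as V-HSB and E-HSB, could still have libraries that did not overlap. The upper block held M-HJZ with 44.7 ± 1.66 TPM, M-XLS with 44.0 ± 2.52, V-ZHYS with 44.0 ± 4.33, M-ZHYS with 41.5 ± 3.60, V-XLS with 40.8 ± 6.91 and V-XG with 38.5 ± 1.22 (SD, n = 3 each). The next block held V-HSB with 32.0 ± 2.15 TPM, V-HJZ with 31.9 ± 1.64, M-CC with 29.0 ± 2.42, M-XG with 27.3 ± 0.766 and E-HSB with 27.0 ± 1.5. Below it stood M-HSB with 23.3 ± 1.02 TPM, E-CC with 22.2 ± 2.32 and V-CC with 20.4 ± 1.5. The lowest block held E-XLS with 14.0 ± 1.88 TPM, E-ZHYS with 12.4 ± 2.43, E-XG with 10.6 ± 1.31 and E-HJZ with 8.96 ± 1.30. Of the 17 pairs of neighbours in this order, 14 had overlapping libraries and 12 differed by less than the larger SD of the pair. The libraries did not overlap at the steps between V-XG and V-HSB, between E-HSB and M-HSB, and between V-CC and E-XLS. After rescaling, the 6 E groups took the lowest 6 places, from 11.2 in E-XG to 19.3 in E-CC, and V-ZHYS was highest with 50.3 ± 5.71 rescaled TPM. The steps without overlap lay between other groups on that scale, so these blocks belong to the TPM order only.

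The first comparison asked how MLO5 differed between the color transition and the enlargement period. MLO5 was higher at V in the mean over the zones, and its log2 fold change was above 1 in 4 of the 6 zones. The zone means of MLO5 averaged 34.6 ± 8.45 TPM at V and 15.9 ± 7.12 TPM at E (SD over 6 zones). The test was limma on log2(TPM + 1), and a gene was called for a mean over zones where the adjusted p was below 0.05 and the absolute log2 fold change was above 1. The mean log2 fold change was 1.14 (SE 0.04, 95% interval 1.05 to 1.23, limma adjusted p = 4.53e-24), and 5.89% of all genes were called higher in this comparison. Over the 6 zone differences, whose SD was 0.85, the two-sided exact sign-flip permutation test gave p = 0.0625 for MLO5, where 0.03125 is the smallest p it can give. MLO5 was higher in 5 of 6 zones by TPM and in 6 of 6 zones by rescaled TPM, for which the exact p was 0.03125. Without zone XLS the mean log2 fold change was 1.08. In bulk flesh, a change in the share of cells that express a gene cannot be told apart from a change in its RNA per cell.

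Within zones the call used the p without adjustment, with the same limits of 0.05 on p and 1 on the log2 fold change. MLO5 was called higher at V in XG, where the fold of the TPM means was 3.62 and the log2 fold change 1.77, in ZHYS (3.53-fold, 1.75), in HJZ (3.56-fold, 1.73) and in XLS (2.92-fold, 1.48). Each log2 fold change had an SE of 0.11, and the limma adjusted p of these zones lay between 6.13e-17 and 1.27e-14. The share of all genes called higher was 8.46% in XG, 10.2% in ZHYS, 16.7% in HJZ and 6.1% in XLS. All 3 V libraries of MLO5 were above all 3 E libraries in these zones, as for 27.5% of all genes in XG, 30.4% in ZHYS, 41.8% in HJZ and 13.8% in XLS. Without V-XLS replicate 3, the highest of its group, the log2 fold change in XLS was 1.34. Of all genes, 2.83% were called higher in these 4 zones, and 0.668% were called in these zones and in neither CC nor HSB, MLO5 among them.

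**Figure D2:**
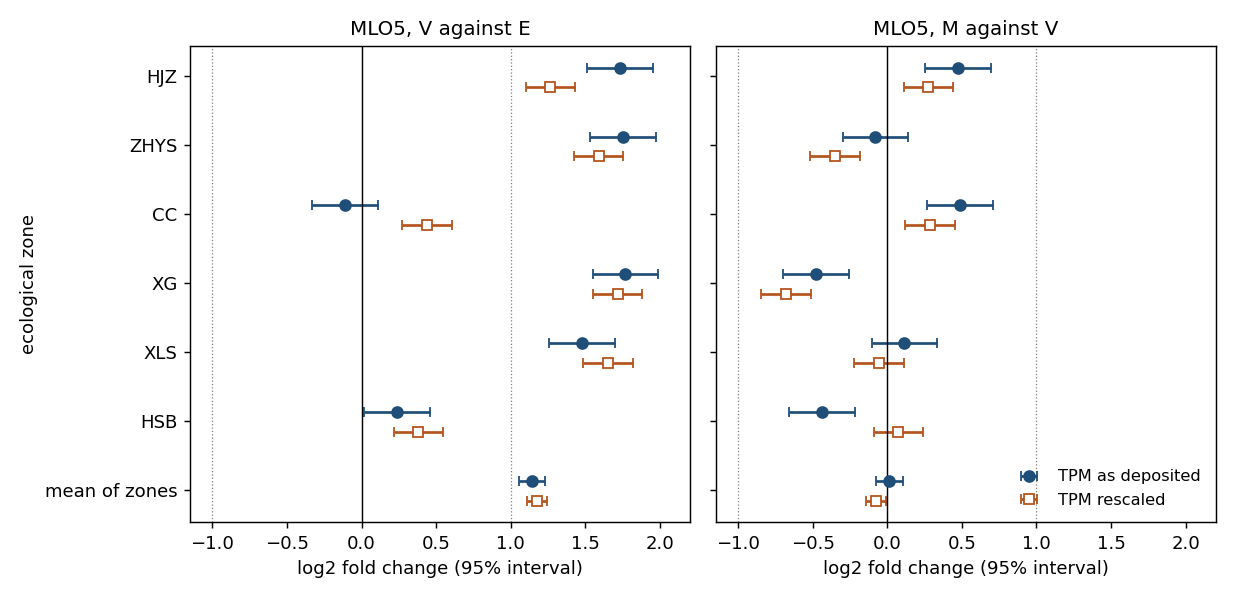
Log2 fold change of MLO5 with its 95% interval in each zone and in the mean of the zones, for V against E (left) and M against V (right); filled circles are TPM as deposited, open squares rescaled TPM, and dotted lines mark an absolute log2 fold change of 1. For V against E, HJZ, ZHYS, XG and XLS lie above 1 on both scales, and CC and HSB between -0.11 and 0.44; for M against V, every zone lies within 1 of 0.

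In CC and HSB the V and E values of MLO5 stood close together. In CC the mean was 20.4 TPM at V and 22.2 TPM at E, a log2 fold change of -0.11 with a 95% interval from -0.33 to 0.11 (limma adjusted p = 0.40). In HSB the mean was 32.0 TPM at V and 27.0 TPM at E, a log2 fold change of 0.24 with an interval from 0.02 to 0.46 (limma adjusted p = 0.09). The 3 V-HSB libraries were all above the 3 E-HSB libraries, as for 13.3% of all genes, but the size limit was not passed. The change from E to V in CC minus the mean of the other zones was -1.51 (log2, SE 0.12, limma adjusted p = 4.67e-13), and 10.1% of all genes were called lower in this test of the difference. The same difference for HSB was -1.09 (SE 0.12, limma adjusted p = 1.05e-09), against 4.49% of all genes called lower. Without zone XLS these differences were -1.48 in CC and -1.05 in HSB, and both were still called.

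These CC and HSB differences moved with the scale of the libraries. The median log2 fold change of all genes between V-CC and E-CC was -0.21, or -0.50 among genes with a mean of at least 1 TPM. On rescaled TPM, MLO5 had 26.8, 24.6 and 28.1 in V-CC, against 21.3, 18.4 and 18.3 in E-CC. The log2 fold change in CC was then 0.44 (limma adjusted p = 1.52e-05). In HSB the rescaled values were 23.7, 24.0 and 26.9 at V, against 19.1, 17.8 and 19.5 at E, a log2 fold change of 0.38 (limma adjusted p = 0.00044). Both changes stayed below the size limit of 1. On this scale the change from E to V minus that of the other zones was -0.88 in CC (limma adjusted p = 3.92e-10) and -0.95 in HSB (limma adjusted p = 2.84e-11), which are both under the size limit.

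The place of MLO5 among the genes of a library does not depend on a scaling factor. The share of genes with lower TPM than MLO5 was on average 80.6% in V-CC, against 77.4% in E-CC, and 80.5% in V-HSB, against 76.7% in E-HSB. It was 83.4% in V-HJZ and 69.6% in E-HJZ, and 88.3% in V-ZHYS and 73.2% in E-ZHYS. In XG it was 86.4% at V and 67.6% at E, and in XLS 86.4% at V and 68.8% at E. MLO5 therefore ranked higher at V than at E in all 6 zones, with the smallest steps in CC and HSB. In both of these zones its place was higher at E, and lower at V, than in the other zones.

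The ripening genes were read in the same zones. GRIP4 averaged 29948 TPM in V-CC, against 46.3 TPM in E-CC, and it had 15139 TPM in V-HSB, against 265 TPM in E-HSB. GRIP22 averaged 7628 TPM in V-CC, against 3.08 TPM in E-CC, and 661 TPM in V-HSB, against 96.6 TPM in E-HSB. V-HSB had the lowest level of GRIP4, GRIP22 and GRIP61 among the V groups, while V-CC was within the range of the other zones. In HSB the change from E to V minus the mean of the other zones was -3.39 (log2) for GRIP4, -6.60 for GRIP22 and 7.80 for GRIP61. GRIP61 had 0.387 TPM in E-HSB, while the other E groups ranged from 380 TPM in E-XG to 2978 TPM in E-ZHYS. In CC this difference was 0.84 for GRIP4, 3.15 for GRIP22 and -2.47 for GRIP61. The part of the ripening state or of the library composition in the MLO5 values was not tested.

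The second comparison asked whether MLO5 differed between the maturity and the color transition period. In the mean over zones MLO5 had 35.0 ± 9.48 TPM at M and 34.6 ± 8.45 TPM at V (SD over 6 zones). The log2 fold change was 0.01 (SE 0.04, 95% interval -0.08 to 0.10, limma adjusted p = 0.83), and the exact sign-flip test gave p = 0.875. This mean was made of zones that pointed in opposite directions. The log2 fold change was 0.49 in CC and 0.48 in HJZ, where all M libraries were above all V libraries, as for 32.3% of all genes in CC and 34.7% in HJZ. It was -0.48 in XG and -0.44 in HSB, where all M libraries were below all V libraries, as for 21.2% of all genes in XG and 50.9% in HSB. By TPM the libraries overlapped in XLS (0.12) and in ZHYS (-0.08). No zone passed the size limit, although the limma adjusted p was below 0.05 in CC, HJZ, XG and HSB, with 0.0013 as the highest of them. The value of HSB changed sign after rescaling, to 0.08. On the deposited scale the median log2 fold change between M-HSB and V-HSB was -0.21 over all genes. Among genes with a mean of at least 1 TPM that median was -0.44, beside -0.44 for MLO5. The XG value was larger after rescaling, -0.68. In ZHYS the rescaled libraries did not overlap, with a fold of 0.778 and a log2 fold change of -0.35 (limma adjusted p = 0.00053). The difference of a zone from the other zones was largest in XG (-0.59), CC (0.57) and HJZ (0.55), and none of these passed the size limit.

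From the enlargement to the maturity period MLO5 was higher again in the mean over zones. Its level averaged 35.0 TPM at M and 15.9 TPM at E, with a log2 fold change of 1.16 (SE 0.04, limma adjusted p = 1.58e-24), and 9.99% of all genes were called higher. MLO5 was higher in 5 of 6 zones by TPM, with p = 0.0625 in the exact sign-flip test over zones, and in 6 of 6 zones by rescaled TPM, with an exact p of 0.03125. Without zone XLS the mean log2 fold change was 1.07. The comparison shares its E libraries with the first and its M libraries with the second. MLO5 was called higher in HJZ (4.99-fold, log2 fold change 2.21), ZHYS (3.34-fold, 1.67), XLS (3.14-fold, 1.59) and XG (2.57-fold, 1.29). The share of all genes called higher was 21.8% in HJZ, 15.7% in ZHYS, 8.48% in XLS and 14.3% in XG. On rescaled TPM the fold in HJZ was 3.05 and the log2 fold change 1.54. MLO5 was not called in CC, with 29.0 TPM at M against 22.2 TPM at E (log2 fold change 0.37, or 0.72 after rescaling), or in HSB, with 23.3 TPM at M against 27.0 TPM at E (-0.20). In HSB all 3 M libraries were below all 3 E libraries by TPM, as for 53.3% of all genes, whereas the rescaled log2 fold change was 0.46.

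The spread of MLO5 over the zones depended on the scale. By TPM the zone means ranged 3.01-fold at E, 2.15-fold at V and 1.92-fold at M, and by rescaled TPM 1.72-fold at E, 2.02-fold at V and 1.64-fold at M. Each zone was compared with the mean of the other 5 zones at the same stage. E-HSB was the only group called, with 27.0 TPM and a log2 difference of 1.0 (SE 0.08, limma adjusted p = 2.09e-13), and 14.9% of all genes were called higher in E-HSB. This value lay at the size limit. The call was lost in 10 of the 54 fits that left out a library, all of them from E groups, with 0.97 as the lowest value, without E-HSB replicate 3. After rescaling, the log2 difference for E-HSB was 0.40. On the deposited scale the median log2 difference of all genes in E-HSB was 0.35, or 0.55 among genes with a mean of at least 1 TPM. The log2 difference was 0.68 for E-CC and -0.79 for E-HJZ. It was -0.83 for V-CC (limma adjusted p = 1.89e-10) and -0.63 for M-HSB (limma adjusted p = 1.38e-07). These 4 differences passed the adjusted p but not the size limit. Rescaled, the log2 difference was -0.21 for E-HJZ, 0.44 for E-CC, -0.44 for V-CC and -0.37 for M-HSB. On that scale V-ZHYS had the largest of all groups, 0.63, followed in size by V-HSB with -0.55 and M-XG with -0.51. By TPM the values were 0.45 for V-ZHYS, -0.08 for V-HSB and -0.36 for M-XG.

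MLO5 was next set beside the annotated members of its family, and it is itself included in the counts and medians. The table held 7 genes with MLO in the RefSeq symbol or synonym, namely MLO5, MLO6, MLO7, MLO9, MLO11, MLO15 and LOC100267554, whose synonyms are MLO3 and MLO6. Family members without such a symbol or synonym were not sought, so counts, ranks and shares hold for these genes only. The role of each in grapevine flesh was not annotated in the sources used here. MLO5 held from 10.5% (E-XG) to 32.7% (E-CC) of the summed TPM of the 7 genes, and by TPM it ranked 2 or 3 among them in every group. MLO15 and LOC100267554 were the only members above it in any group. Between V and E, 3 of the 7 members were called higher in the mean over zones and 0 lower, with a median log2 fold change of 0.95, against -0.02 over all genes, of which 5.89% were called higher and 7.36% lower. Between M and V, 1 was called higher and 0 lower (median 0.09, against 0.00 over all genes), where 1.69% of all genes were called higher and 1.81% lower. Between M and E, 5 were called higher and 1 lower (median 1.16, against 0.00 over all genes), where 9.99% of all genes were called higher and 11.4% lower. MLO5 was among the members called higher between V and E and between M and E, and the median of 1.16 was its own value. By an unadjusted limma p below 0.05 with no size limit, 6 members were higher and 1 was lower between V and E, where 30.9% of all genes were higher and 42.4% lower by this rule. Between M and V, 3 members were higher and 2 were lower by it, as were 35.6% and 29.1% of all genes.

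LOC100267554 averaged 12.2 TPM at E, 53.1 TPM at V and 64.2 TPM at M, and its mean log2 fold change between V and E was 2.31. Unlike MLO5, it was called higher in CC, with 35.2, 32.1 and 30.0 TPM in V-CC, against 4.04, 3.74 and 2.79 TPM in E-CC, a log2 fold change of 2.89 (limma adjusted p = 2.30e-18), where 5.67% of all genes were called higher. It was also called in HSB, with 24.6, 35.2 and 38.9 TPM in V-HSB, against 11.5, 8.75 and 9.77 TPM in E-HSB, where 2.82% of all genes were called. In ZHYS, where MLO5 was called, LOC100267554 had 44.7 TPM at V against 30.5 TPM at E, which was not called (log2 fold change 0.55). The zones in which the V and E levels stood close together thus were not those of MLO5.

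MLO6 averaged 4.0 TPM at E, 7.93 TPM at V and 8.66 TPM at M. Between V and E it had log2 fold changes of 1.40 in HJZ, 1.81 in ZHYS and 1.51 in XG, which were called, and 0.63 in XLS, 0.26 in CC and 0.07 in HSB, which were not. Its mean log2 fold change between V and E was 0.95, under the size limit (1.0 and called after rescaling), and between M and E it was 1.04 and was called. Over the 18 group means of log2(TPM + 1), the Pearson correlation with MLO5 was 0.74 for MLO6 and 0.70 for LOC100267554. It was 0.45 for MLO9, 0.30 for MLO7, 0.19 for MLO15 and -0.36 for MLO11. On rescaled TPM it was 0.71 for MLO6, 0.74 for LOC100267554, 0.51 for MLO9, 0.29 for MLO7, -0.04 for MLO15 and -0.58 for MLO11. These correlations are descriptions, and their 18 points share stages, zones and library composition.

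The other members had other courses. MLO9 averaged 0.154 TPM at E, 3.0 TPM at V and 5.99 TPM at M, and it was called higher at V (mean log2 fold change 1.58) and at M against E (2.37). MLO7 was called higher at M but not between V and E, with 0.508 TPM at E, 0.956 TPM at V and 8.40 TPM at M and a log2 fold change of 1.99 between M and V. MLO11 was highest at E, with 2.96 TPM at E, 1.35 TPM at V and 0.422 TPM at M, and it was called lower at M than at E (-1.27). MLO15 had the highest TPM of the annotated members in 10 of the 18 groups. It averaged 67.3 TPM at E, 68.6 TPM at V and 35.0 TPM at M, and no mean over zones was called. In HSB it had 13.3, 15.1 and 14.8 TPM at M, against 165.9, 152.8 and 110.3 TPM at V, a log2 fold change of -3.20 (limma adjusted p = 2.15e-19), and 19.8% of all genes were called lower there. Under median-of-ratios scaling and quantile normalization, no mean change over zones of these members turned direction.

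**Figure D3:**
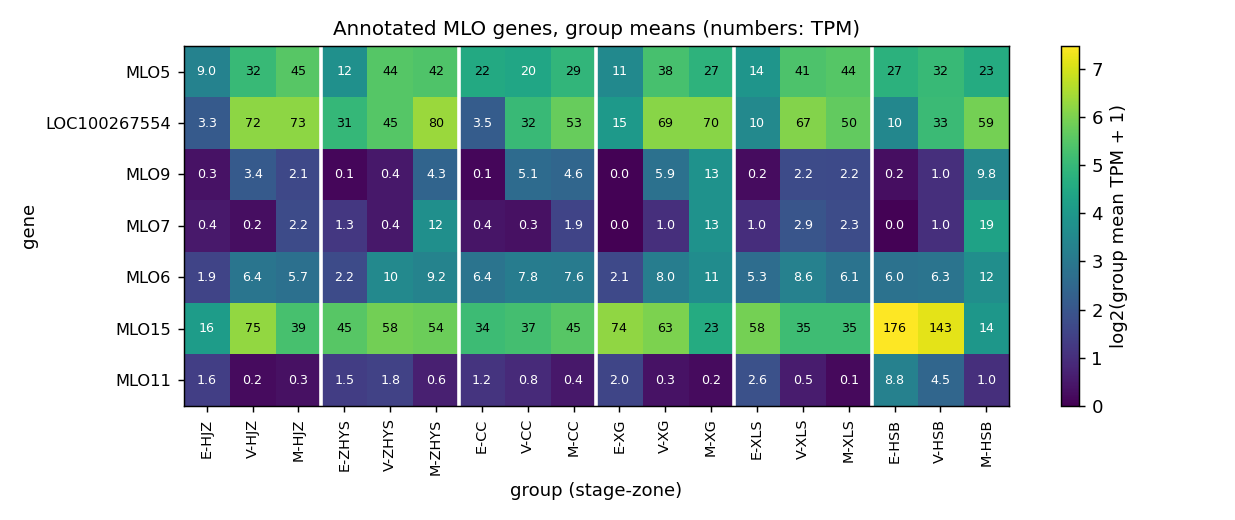
Group means of the 7 annotated MLO genes (rows) in the 18 groups (columns, by zone, each from E to M); color is log2(mean TPM + 1) and the printed numbers are mean TPM. MLO5 takes an intermediate level in every group, LOC100267554 and MLO15 are the other abundant members, and MLO9 and MLO7 are near 0 TPM in the E groups.

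Because of the place of the family in powdery mildew, the annotated defence genes EDS1 and PR1 were looked up. EDS1, a regulator of defence signalling best known from *Arabidopsis*, averaged 11.4 TPM at E, 14.0 TPM at V and 11.9 TPM at M, and no mean over zones was called. PR1, a pathogenesis-related gene often used as a marker of the salicylic acid response, averaged 13.7 TPM at E, 1.62 TPM at V and 0.00611 TPM at M. Its E level ranged from 1.31 TPM in E-HJZ and 1.36 TPM in E-XG to 40.9 TPM in E-ZHYS (SD over 6 zones 16.1). The E-XLS libraries had 14.1, 56.2 and 5.98 TPM. PR1 was called lower at V than at E in the mean over zones (log2 fold change -2.34), where 7.36% of all genes were called lower. V-HSB was an exception with 9.63 TPM, against 9.39 TPM in E-HSB, while V-HJZ, V-ZHYS, V-CC and V-XG were listed at 0. A further gene with the symbol PR-1 did not pass 0.353 TPM in any group mean. Over the 18 groups the Pearson correlation with MLO5 was 0.52 for EDS1 and -0.53 for PR1, or 0.38 and -0.69 on rescaled TPM.

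The genes with a pattern most like that of MLO5 were sought over the 18 group means of log2(TPM + 1), among the 16120 other genes with a mean of at least 1 TPM. The correlation was above 0.9 for 0.751% of them, or for 0.285% on rescaled TPM, and below -0.9 for 0 genes. The median correlation over all genes compared was 0.26. The 10 highest values lay between 0.945 and 0.965 and belonged to LOC100265359, LOC100266582, LOC100261070, LOC100255765, LOC100255339, LOC104882418, LOC100251963, LOC100260500, LOC100248279 and LOC100260767, none of which has a named role in the table used. LOC100266582 was second by TPM (0.965) and first on rescaled TPM (0.954), with 8.15 TPM at E, 16 TPM at V and 18.4 TPM at M. LOC100265359 was first by TPM, but its correlation on rescaled TPM was 0.811 and its place there 688. The most opposite genes were LOC104879348 (-0.861), LOC100264820, LOC100251563, LOC100244631 and LOC100261301 (-0.849), whose mean log2 fold changes between V and E lay between -2.88 and -1.82.

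The next gene after MLO5 in the RefSeq order was among those most like it. LOC100246579 had the eleventh highest correlation with MLO5 by TPM, 0.94, and the 13th on rescaled TPM, 0.93. It averaged 28.8 TPM at E, 57.6 TPM at V and 58.1 TPM at M, with a mean log2 fold change of 1.0 between V and E (SE 0.05, limma adjusted p = 3.04e-21). As for MLO5, it was called higher at V in HJZ (1.90), ZHYS (1.49), XG (1.23) and XLS (1.12), and not in CC or HSB. In CC it had 41.7, 38.4 and 37.7 TPM at V, against 42.1, 40.9 and 39.5 TPM at E, and in HSB 41.2, 44.3 and 48.6 TPM at V, against 40.5, 33.9 and 31.8 TPM at E. The neighbours on the other side, LOC100265491 and LOC100852760, had correlations of 0.60 and 0.50 with MLO5, and LOC100263718, the next gene of the table beyond LOC100246579, had -0.06. The sources used here do not state whether fragments were counted by strand, and whether MLO5 and LOC100246579 share reads was not tested.

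**Figure D4:**
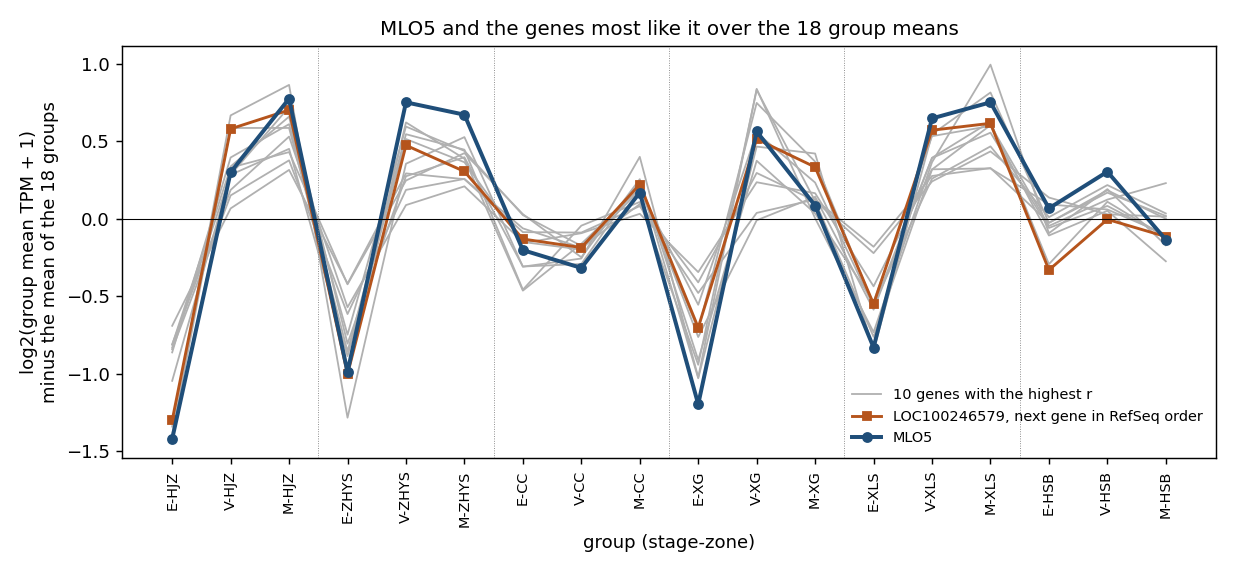
Log2(mean TPM + 1) of MLO5 (blue), LOC100246579 (orange) and the 10 genes with the highest correlation with MLO5 (grey), each minus its own mean over the 18 groups (x axis, by zone, each from E to M). Every line has its 4 lowest groups at E in HJZ, ZHYS, XG and XLS, with dips that differ in depth, and some of the grey lines also dip at E in CC.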

How the data were processed

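The authors sequenced mRNA libraries on the Illumina HiSeq-2000 platform, aligned clean reads with HISAT2 and counted fragments with featureCounts, per the labels and the study's methods. The methods point to an Ensembl Genomes annotation of *V. vinifera*, but tool versions and an assembly name are not given in the sources used here, so no coordinates are printed. The deposited values are TPM of 25133 genes in 54 libraries, rounded to 2 decimals, with replicates not pooled and 0 columns of other samples. TPM keeps no depth, so precision is known only from the spread of replicates. No libraries were identical. Symbols came from the RefSeq table of ASM3070453v1, which held 23256 of the IDs.

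The test was limma 3.58.1 (R 4.3.3) on log2(TPM + 1), which understates changes of low genes. It fitted 18 group means with a variance trend over all 54 libraries (36 residual degrees of freedom), adjusted by Benjamini-Hochberg over all genes. The fit was run on simulated data with independent noise and added shifts larger than the mean changes of MLO5 over zones. Those data held no differences in library composition, so the run does not bear on the effect of scaling. Median-of-ratios factors used the 16546 genes above 0 in every library. Other values came from Python 3.11.15, numpy 2.4.6 and pandas 2.3.3, with figures by matplotlib 3.10.9.

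Named genes were MLO5, genes with MLO in the RefSeq symbol or synonym, the 10 most and 5 least correlated genes, the 2 neighbours on each side, EDS1, PR-1 and the GRIP genes. Protein similarity and product names were not used here, so calmodulin, syntaxin and EDR2 partners and markers of seed, skin and green tissue were not looked up. The gene, lists and tests were chosen with earlier results of these data known. Alternatives were a pseudocount of 0.1, only genes that averaged 1 TPM or more, scaling by median-of-ratios, quantile normalization, a block for the replicate number, each library left out, zone HSB left out, zone means as the unit, fits of the 2 groups compared, the adjusted p within zones and, chosen after seeing the data, zone XLS left out.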

Additional observations from a re-analysis of the deposited data

Results flagged for a closer look

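The change of MLO5 from E to V differed between zones by a test of the difference itself. In CC it was below the mean of the other zones (log2 difference -1.51, limma adjusted p = 4.67e-13), and the 3 V libraries were at 18.85 to 21.85 TPM, against 19.93 to 24.56 TPM for the 3 E libraries. In HSB it was also below (log2 difference -1.09, limma adjusted p = 1.05e-09), with 29.96 to 34.23 TPM at V, against 25.26 to 28.08 TPM at E. Both differences kept their sign after rescaling, at -0.88 and -0.95, but were under the size limit of 1 and were not called there. On rescaled TPM, V-CC was above E-CC, with a log2 fold change of 0.44. Under quantile normalization the call was kept for CC (-1.02) and lost for HSB (-0.95).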

How the results depend on the processing

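The higher level of MLO5 at V and at M than at E, in the mean over zones and in HJZ, ZHYS, XG and XLS, kept its direction and its call under the alternatives run for it. Zone means as the unit were run for the means over zones only, and leaving out XLS not for XLS itself. With zone means as the unit the limma adjusted p was 0.014 for V against E, while the exact sign-flip permutation p over zones was 0.0625 by TPM for both V against E and M against E. Some values below the size limit changed sign with the scale, and not all of them were near 0. By TPM, M-HSB against V-HSB was -0.44 (limma adjusted p = 0.00057). The HSB difference in M against V was -0.54 (limma adjusted p = 0.00013), and E-ZHYS against the other zones was -0.28 (limma adjusted p = 0.0043). Under median-of-ratios scaling the log2 value turned to -0.075 for M against V in the mean over zones, 0.44 for V-CC against E-CC, -0.057 for M-XLS against V-XLS, 0.075 for M-HSB against V-HSB, 0.46 for M-HSB against E-HSB, 0.13 for E-ZHYS against the other zones and 0.18 for the HSB difference in M against V. The calls of E-HSB against the other zones (0.40) and of the V against E differences of CC (-0.88) and HSB (-0.95) were lost there. Under quantile normalization the values that turned were -0.076 for M against V in the mean, 0.30 for V-CC against E-CC, -0.012 for M-XLS against V-XLS, 0.30 for M-HSB against E-HSB, 0.10 for E-ZHYS and 0.024 for the HSB difference in M against V, and the calls of E-HSB (0.46) and of the HSB difference (-0.95) were lost, while that of CC (-1.02) was kept.

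Without HSB, E-XLS against the other zones turned to 0.12, and without XLS the mean M against V turned to -0.0068. The call of E-HSB against the other zones was lost in 10 of 54 fits that left out a library, with values from 0.97 to 1.05. The libraries were E-HJZ replicate 2, E-ZHYS replicates 1 and 2, E-CC replicate 3, E-XG replicates 2 and 3, E-XLS replicates 2 and 3, and E-HSB replicates 1 and 3. No other result changed its call or direction when a library was left out. For the MLO family, a pseudocount of 0.1 gave 1 lower member for V against E (MLO11) and 2 higher for M against V (MLO7 and MLO9), leaving out XLS gave 1 lower for M against V (MLO15), and zone means as the unit gave 0 higher for M against V, where the main test had 1.

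Same-numbered libraries of different groups had a median correlation of 0.0105 in their deviations from the group means, with a range from -0.446 to 0.522. For libraries of different number the median was -0.0101. Of the same-numbered pairs, 24.4% were above 0.1. With 3 numbers to choose from, 32 of the 54 libraries were closest on average to libraries of their own number. Whether the numbers pair the samples cannot be told from these values. With the replicate number as a block, V against E was 1.14 and M against E 1.16, and no result changed its call. TPM without counts sets no limit of detection for genes listed at 0.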
